A study of Rattus norvegicus with 12 samples.

Results

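The proteasome genes of 2 rat hepatic cell lines were followed through rapamycin treatment on a bead array. All probes whose gene symbol in the platform annotation began with Psm, a letter from a to g and a number were taken, which gave 44 of the 22523 probes on the array, for 43 of the 13337 genes with a symbol. Of these, 8 probes belonged to alpha subunits of the 20S core, 7 to constitutive beta subunits, 5 to immune or thymic beta subunits, 6 to ATPases of the 19S cap, 10 to its other subunits, 3 to activators and 4 to assembly chaperones. The remaining probe, for Psmc3ip, matched by name only, since its product works in meiotic recombination and is no proteasome subunit. GN5 cells, a tumorigenic line made from the liver epithelial line WB-F344 with an agent labelled NNN, were grown in DMEM/F12. H5D cells, a tumorigenic line from a Fischer rat hepatocellular carcinoma raised with an azo dye, were grown in Waymouth medium. Both received either the vehicle DMSO or 50 nM rapamycin, an inhibitor of the kinase mTOR, for 24 h, and no untransformed line was compared. Each of the 4 groups (GN5 vehicle, GN5 rapamycin, H5D vehicle and H5D rapamycin) had 3 arrays, whose RNA came from separate plates of 1 line, so p-values measure the spread between plates. Line and medium cannot be told apart.

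The proteasome degrades proteins that carry ubiquitin. Its 20S core is a barrel of stacked rings, with outer rings of alpha subunits that form the gate and inner rings of beta subunits, of which Psmb5, Psmb6 and Psmb7 carry the chymotrypsin-like, caspase-like and trypsin-like activities. Interferon-gamma induces alternative catalytic subunits, Psmb8 (LMP7), Psmb9 (LMP2) and Psmb10 (MECL-1), which replace Psmb5, Psmb6 and Psmb7 in newly built cores and favour peptides that fit MHC class I molecules. The 19S cap binds, unfolds and feeds substrates through its ring of Psmc ATPases, and its Psmd subunits hold ubiquitin receptors and the deubiquitinase lid. The PA28 activator of Psme1 and Psme2, also induced by interferon, and PA200 (Psme4) can bind the core in place of the cap. Psmg1 and Psmg2 help the alpha ring to form, while Psmd5 and Psmd9 are chaperones that leave once the base of the cap is built. In mouse cells, mTORC1 activity has been linked to proteasome gene transcription, and the transcription factor Nfe2l1 acts on antioxidant response elements in such promoters.

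The promoters of 39 of the 43 genes were found in a RefSeq table of the GRCr8 build, as windows of 300 bases from 250 before to 50 after the start of the gene, and 38 of these belonged to subunits or chaperones. Shown here are the windows of the genes on which the results turned, the immune subunits Psmb8, Psmb9 and Psmb10, the PA28 subunit Psme2 and the cap chaperones Psmd5 and Psmd9. Capitals mark every match, on either strand, to 1 of 6 motifs: CCAAT (NF-Y), TGACNNNGC and TGAGNNNGC (cores of the antioxidant response element), GAAANNGAA (core of the interferon-stimulated element), TTCNNNGAA (gamma-activated site) and TGATGNAA (C/EBP-ATF core).
Psmb8, chr20:4656982-4657281, minus strand: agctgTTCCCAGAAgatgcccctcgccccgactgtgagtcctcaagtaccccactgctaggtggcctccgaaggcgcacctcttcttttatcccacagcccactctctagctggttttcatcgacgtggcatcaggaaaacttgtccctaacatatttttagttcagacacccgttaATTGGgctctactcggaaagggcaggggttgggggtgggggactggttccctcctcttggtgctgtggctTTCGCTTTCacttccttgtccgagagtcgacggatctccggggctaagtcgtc
Psmb9, chr20:4668750-4669049, plus strand: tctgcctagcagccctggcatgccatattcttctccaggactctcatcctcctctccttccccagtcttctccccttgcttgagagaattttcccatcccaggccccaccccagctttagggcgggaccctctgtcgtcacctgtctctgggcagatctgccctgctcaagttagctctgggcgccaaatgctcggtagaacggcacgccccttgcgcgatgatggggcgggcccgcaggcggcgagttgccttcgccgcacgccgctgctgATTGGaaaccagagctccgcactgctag
Psmb10, chr19:50743243-50743542, minus strand: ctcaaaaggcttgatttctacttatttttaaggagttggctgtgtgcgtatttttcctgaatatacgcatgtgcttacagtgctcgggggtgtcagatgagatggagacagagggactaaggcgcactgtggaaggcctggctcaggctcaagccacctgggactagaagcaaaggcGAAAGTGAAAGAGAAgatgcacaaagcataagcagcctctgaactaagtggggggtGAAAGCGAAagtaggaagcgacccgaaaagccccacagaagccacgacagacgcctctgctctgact
Psme2, chr15:33052702-33053001, minus strand: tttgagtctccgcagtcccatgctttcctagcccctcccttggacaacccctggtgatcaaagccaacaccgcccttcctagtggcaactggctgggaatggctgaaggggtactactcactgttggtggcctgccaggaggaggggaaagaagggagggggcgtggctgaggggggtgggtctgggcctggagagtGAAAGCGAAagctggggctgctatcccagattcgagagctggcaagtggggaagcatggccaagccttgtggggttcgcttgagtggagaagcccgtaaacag
Psmd5, chr3:38548441-38548740, minus strand: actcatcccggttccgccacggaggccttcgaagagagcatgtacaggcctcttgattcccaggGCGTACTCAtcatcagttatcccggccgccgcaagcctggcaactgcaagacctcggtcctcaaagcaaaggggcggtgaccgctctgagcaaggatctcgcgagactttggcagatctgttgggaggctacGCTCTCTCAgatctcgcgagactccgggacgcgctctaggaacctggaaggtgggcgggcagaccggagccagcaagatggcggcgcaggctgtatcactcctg
Psmd9, chr12:39018215-39018514, minus strand: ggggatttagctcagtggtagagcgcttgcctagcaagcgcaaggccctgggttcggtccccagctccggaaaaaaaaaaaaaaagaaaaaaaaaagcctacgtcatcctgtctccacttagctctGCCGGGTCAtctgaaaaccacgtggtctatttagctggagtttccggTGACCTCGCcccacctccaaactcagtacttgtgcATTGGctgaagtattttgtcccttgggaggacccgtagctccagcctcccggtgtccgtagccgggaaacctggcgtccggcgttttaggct
Psmb10 held 3 matches to the interferon-stimulated core, of which the first 2 overlapped. Psmb8 and Psme2 held 1 each, and Psmb9 held none in this window, where its only match was a CCAAT box. Over all 33469 promoters of this length 9.71% held the interferon-stimulated core, against 8 of the 38 proteasome promoters (Psma4, Psmb2, Psmb3, Psmb8, Psmb10, Psmd7, Psmd11 and Psme2). Psmd5 held the antioxidant core TGAGNNNGC at 2 places and Psmd9 held TGACNNNGC at 2 places. These cores were present in 17.2% and 12.1% of all promoters, and each in 8 of the 38. The CCAAT box was found in 17 of the 38 and in 37.5% of all promoters. The gamma-activated site was found in 4 of the 38 and in 8.87% of all, and the C/EBP-ATF core in 2 of the 38 and in 3.98% of all. A match describes the letters and does not show a bound site.

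Between 7427 and 8483 probes were detected on an array, with 40 to 42 of the proteasome probes among them. Arrays of a group correlated at 0.992 to 0.997 over all probes, and arrays of different lines at 0.916 to 0.923. GN5 vehicle replicates 2 and 3 had raw median intensities of 105.9 and 96.2, against 74.3 to 82.7 on the other arrays, and counts of calls and list results that rest on them are given without them too. The 6 haematopoietic markers and the 2 endothelial markers with a probe were detected on no array. Leukocytes are rich in the immune subunits, and a part of such cells in the values was not tested. The hepatocyte markers Alb, Ttr, Afp and Hnf4a were not detected either, and of the 8 hepatocyte markers on the array only transferrin (Tf) was. Krt7, Krt8, Vim and S100a4 were detected in all groups, Krt19 in H5D only and Col1a1 in GN5 only. The epithelial markers Epcam and Cdh1 and the mesenchymal marker Thy1 were detected on no array.

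Nearly the whole complex was measurable in both lines. The probe of Psma8, an alpha subunit of testis, and that of Psmb11, the beta subunit of thymic epithelium, were detected on 0 of 12 arrays. Psmd8 was detected on 2 of 3 GN5 vehicle arrays, 0 of 3 GN5 rapamycin arrays and 1 of 3 arrays in each H5D group, and entered no comparison. Psma3 was detected on all 6 GN5 arrays but on 1 of 3 H5D vehicle and 2 of 3 H5D rapamycin arrays, so that it was not compared within H5D. Psmc6 was detected on 1 of 3 GN5 rapamycin arrays and on all 3 arrays of each other group. Thus 41 of the 44 probes were tested in GN5, 40 in H5D and 41 between the lines. Psmb10 had 2 probes, here called probe 1 and probe 2. For 16 of the 43 genes, the GRCr8 gene table listed pseudogenes or like-named copies, 44 in all, whose RNA the array may not separate. These include Psma2, Psma3, Psma7, Psmb3, Psmb6, Psmb7, Psme1 and Psme2, and their part in the values was not tested. Values below are log2 normalised intensities of a probe and are comparable between arrays, not between probes.

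The immune catalytic subunits were lower in GN5 than in H5D. Psmb8 and both probes of Psmb10 were called lower under either treatment and Psmb9 under rapamycin, whereas of the constitutive subunits they replace, Psmb6 and Psmb7 were called in neither comparison and Psmb5 was called higher under rapamycin. Over the array 31.0% of probes were called lower in GN5 under vehicle and 34.1% under rapamycin. All GN5 arrays lay below all H5D arrays for 2721 of 8279 probes under vehicle and 2895 of 8288 under rapamycin. Separate lines were thus common over the array. An array measures RNA in bulk, so that fewer expressing cells and less RNA per cell cannot be told apart.

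Psmb8, which replaces Psmb5, read 10.84, 10.92 and 10.95 in GN5 and 11.85, 11.83 and 11.86 in H5D under vehicle. Under rapamycin the GN5 arrays read 10.78, 10.47 and 10.46 and the H5D arrays 11.57, 11.64 and 11.57. The lines did not overlap under either treatment, and all 3 rapamycin arrays lay below all 3 vehicle arrays in both lines. GN5 was 1.93-fold lower than H5D under vehicle (log2 fold change -0.95 ± 0.10 SE, adjusted p = 1.08e-05 in limma) and 2.03-fold lower under rapamycin (-1.02 ± 0.11, adjusted p = 2.7e-06).

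Psmb10, which replaces Psmb7, was lower with both probes. Its probe 1 read 10.44, 10.50 and 10.49 in GN5 vehicle, 10.09, 10.10 and 10.05 in GN5 rapamycin, 11.10, 10.999 and 11.09 in H5D vehicle and 11.06, 10.97 and 10.82 in H5D rapamycin. Probe 2 read 8.37, 8.26 and 8.51, then 8.09, 8.02 and 7.98, in GN5 and 8.75, 9.02 and 9.13, then 8.84, 8.79 and 8.79, in H5D, in the same order of treatments. For both probes every GN5 array was below every H5D array, and every GN5 rapamycin array below every GN5 vehicle array. Under vehicle the line difference was -0.59 ± 0.10 with probe 1 and -0.58 ± 0.13 with probe 2 (adjusted p = 0.000441 and 0.00239 in limma). Under rapamycin it was -0.87 ± 0.10 and -0.78 ± 0.09 (adjusted p = 4.59e-06 and 6.52e-06).

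Psmb9, which replaces Psmb6, was noisier in H5D. It read 7.91, 7.99 and 8.14 in GN5 vehicle and 7.51, 7.66 and 7.52 in GN5 rapamycin. In H5D it read 8.47, 8.80 and 8.04 under vehicle and 8.08, 8.25 and 8.56 under rapamycin. The lowest H5D vehicle array fell inside the range of the GN5 vehicle arrays, while under rapamycin the lines did not overlap. The line difference was -0.42 ± 0.17 under vehicle and missed the threshold (adjusted p = 0.0524 in limma), and -0.73 ± 0.12 under rapamycin (adjusted p = 0.000167).

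Psmb5, the chymotrypsin-like subunit, read 11.24, 11.07 and 11.09 in GN5 vehicle, 11.15, 10.96 and 11.01 in GN5 rapamycin, 10.74, 11.14 and 10.82 in H5D vehicle and 10.74, 10.65 and 10.68 in H5D rapamycin. Its H5D values spread widely under vehicle and lay together under rapamycin. Psmb5 was 1.28-fold higher in GN5 under rapamycin (0.35 ± 0.09, adjusted p = 0.00502 in limma), where the lines did not overlap, and was not called under vehicle (0.24 ± 0.13, adjusted p = 0.129). With each array scaled to a common median in place of quantile normalization, the log2 fold change under rapamycin was 0.13 and was not called.

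Psmb6, the caspase-like subunit, read 10.97, 11.10 and 11.14 in GN5 vehicle, 10.90, 10.73 and 10.49 in GN5 rapamycin, 10.93, 10.94 and 11.05 in H5D vehicle and 10.95, 11.02 and 10.90 in H5D rapamycin. The lines overlapped under vehicle and, by 1 GN5 array, under rapamycin. Psmb7, the trypsin-like subunit, read 10.91, 10.92 and 11.08 in GN5 vehicle, 10.79, 10.71 and 10.76 in GN5 rapamycin, 10.92, 10.96 and 11.01 in H5D vehicle and 10.57, 10.81 and 10.78 in H5D rapamycin. Its lines overlapped under both treatments, and in both lines the rapamycin arrays lay below the vehicle arrays. Between the lines neither was called. Under rapamycin Psmb6 stood at -0.25 (95% interval -0.50 to -0.00, adjusted p = 0.0642 in limma) and passed the threshold, lower in GN5, in 4 of 14 alternative settings, scaling to a common median among them. Psmb7 was at 0.03 under rapamycin. Under vehicle the differences of Psmb6 and Psmb7 were 0.10 and 0.01 (95% intervals -0.14 to 0.33 and -0.23 to 0.24).

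**Figure D1:**
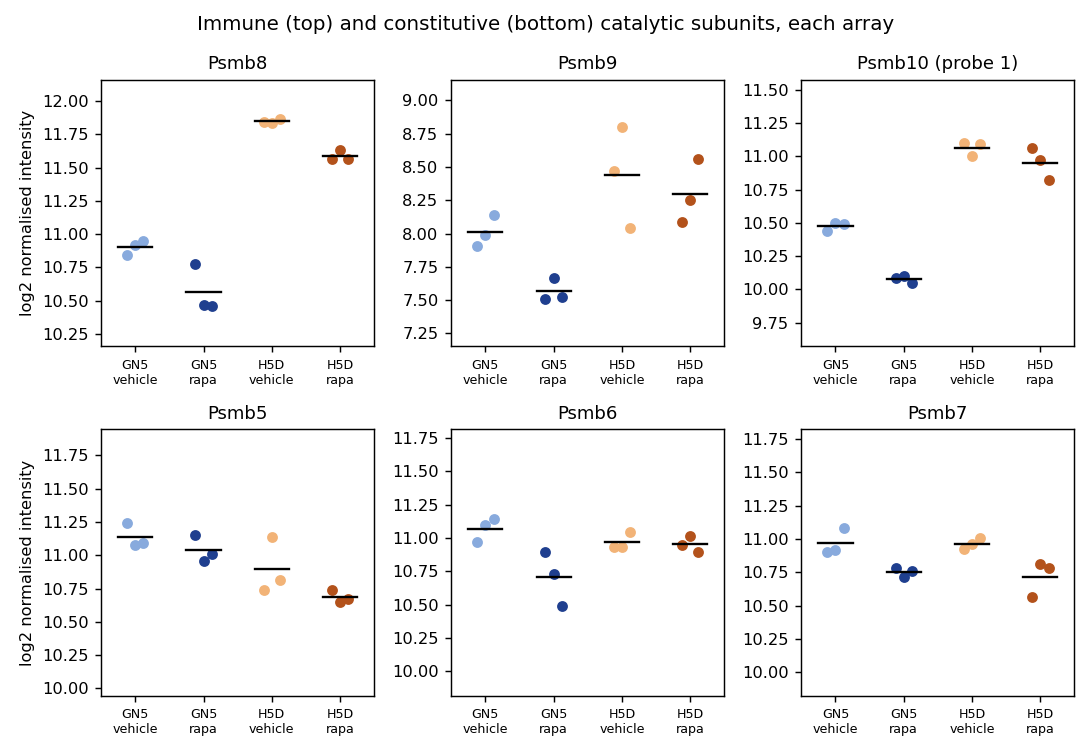
The log2 normalised intensity of the immune catalytic subunits Psmb8, Psmb9 and Psmb10 (top) and of the constitutive subunits Psmb5, Psmb6 and Psmb7 (bottom) is plotted for each array by line and treatment, with 3 points per group and a bar at the mean. Every panel spans the same range of log2 units. Psmb8 lay between 10.84 and 10.95 in GN5 vehicle and between 11.83 and 11.86 in H5D vehicle, while Psmb7 overlapped.

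The balance of each immune subunit over the constitutive subunit it replaces was set out as a difference of log2 intensities on each array, centred over the 12 arrays. Psmb8 over Psmb5 ran from -0.69 to -0.43 in GN5 vehicle and from 0.41 to 0.82 in H5D vehicle, a line difference of -1.18. Under rapamycin it ran from -0.84 to -0.66 in GN5 and from 0.54 to 0.70 in H5D, a difference of -1.38. With GN5 vehicle replicate 1 as the only GN5 vehicle array the difference was -1.35. Both differences separated the lines without overlap (exact two-sided permutation test, p = 0.1, the smallest p that 3 against 3 arrays allow). Psmb10 over Psmb7 was lower in GN5 by a log2 difference of -0.59 under vehicle and -0.91 under rapamycin, also without overlap (exact p = 0.1 for both). For Psmb9 over Psmb6 the differences were -0.52 under vehicle, with overlap (exact p = 0.2), and -0.48 under rapamycin, without (exact p = 0.1). These 12 comparisons, 3 pairs in 4 contrasts, cannot pass a threshold of 0.05 and are given as a description. Within a line the balance shifted less, and rapamycin separated the arrays only for Psmb10 over Psmb7 in GN5, at -0.18 (exact p = 0.1).

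Rapamycin was accompanied by lower values across the complex in GN5. Of the 41 probes tested, 39 had a log2 fold change below 0, with a median of -0.21, while the median over all 7449 probes tested was 0.005 and 48.8% of these were below 0. After adjustment over all probes 4 proteasome probes were called, all lower, where 6.91% of all probes were called in either direction and 3.46% were called lower. At an unadjusted p under 0.05, 19 of the 41 passed and all were lower, against 1782 of all 7449 probes, of which 871 were lower. For 19 of the 41 probes all 3 rapamycin arrays lay below all 3 vehicle arrays, and for 0 above, against 13.8% of all probes below. When arrays were scaled to a common median, the median over all probes moved to -0.14 (103 higher and 754 lower calls, against 257 and 258), and 20 proteasome probes were called, all lower, with their median 0.26 below that of all probes.

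The 4 called probes were those of Psmd13, Psme4, Psmb9 and Psmb10. Psmd13, a subunit of the lid, read 8.89, 9.18 and 9.07 under vehicle and 8.70, 8.37 and 8.30 under rapamycin, a 1.51-fold fall (-0.59 ± 0.13, adjusted p = 0.0172 in limma). Psme4, the PA200 activator, read 10.60, 10.77 and 10.49 under vehicle and 9.98, 10.32 and 10.18 under rapamycin, a 1.38-fold fall (-0.46 ± 0.12, adjusted p = 0.0374). In both cases the treated arrays lay below all vehicle arrays. Among the immune subunits, Psmb9 fell 1.36-fold (-0.45 ± 0.10, adjusted p = 0.0242 in limma) and Psmb10 1.32-fold with probe 1 (-0.40 ± 0.09, adjusted p = 0.0234). Its probe 2 gave a similar value that missed the threshold (-0.35 ± 0.10, adjusted p = 0.0567), as did Psmb8 (-0.34 ± 0.11, adjusted p = 0.088). The methods' t-test called 11 probes before Benjamini-Hochberg adjustment and 1, of Psmb10, after it. Without GN5 vehicle replicate 2, rapamycin replicate 2 or rapamycin replicate 3 the count was 0, without rapamycin replicate 1 it was 1, and without vehicle replicate 1 it was 9. Without vehicle replicates 2 and 3, the arrays with brighter raw signal, 34 of 41 probes were still below 0 with a median of -0.20, and the only call was Psmc5, an ATPase of the cap named here after its values were seen.

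By role, GN5 values were lowest, at the median, for the activators (-0.38, 1 of 3 called lower) and the immune subunits (-0.38, 2 of 4 called lower), followed by the ATPases (-0.31, 0 of 6) and the assembly chaperones (-0.29, 0 of 4). The ATPases include Psmc6, whose dim probe was detected on 1 of 3 GN5 rapamycin arrays. It was tested through vehicle, where it was higher, and is counted among the probes below 0. The order of the ATPases and the assembly chaperones rests on it. The constitutive beta subunits had a median of -0.18 (0 of 7), the other cap subunits -0.17 (1 of 9) and the alpha subunits -0.12 (0 of 7). The activators were uneven. Psme2, the beta subunit of PA28, read 9.44, 9.35 and 9.57 under vehicle and 9.22, 9.05 and 8.95 under rapamycin, without overlap, and just missed the threshold (-0.38 ± 0.11, adjusted p = 0.0535 in limma). Its partner Psme1 read 11.79, 11.76 and 11.87 under vehicle and 11.88, 11.77 and 11.79 under rapamycin, with overlap and a log2 fold change of 0.01 (95% interval -0.20 to 0.21). Among the ATPases, Psmc3 (Rpt5) read 8.49, 9.15 and 9.33 under vehicle and 8.53, 8.38 and 8.23 under rapamycin. Its log2 fold change was the lowest of the 41 (-0.61 ± 0.18), with 1 vehicle array inside the treated range and an adjusted p of 0.0686 in limma. Psmb3, a structural beta subunit, was at -0.36 ± 0.10 (adjusted p = 0.0529). Of the 41, Psme1 and the alpha subunit Psma3 were not below 0, with Psma3 at 0.01 ± 0.10.

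**Figure D2:**
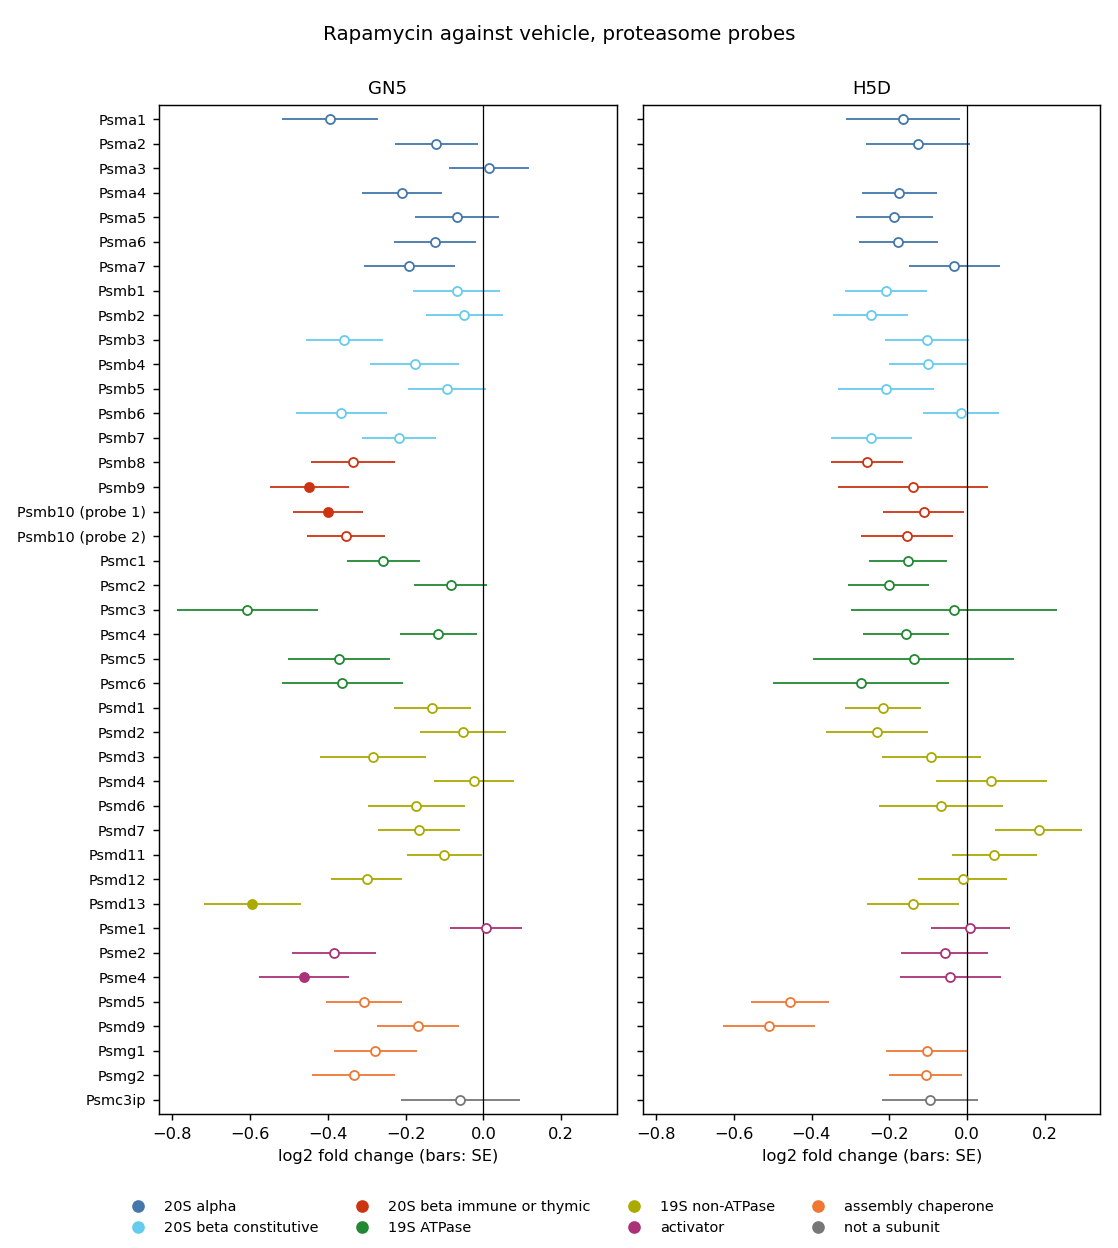
The log2 fold change of rapamycin over vehicle, with its SE as a horizontal bar, is plotted for each tested proteasome probe in GN5 (left) and H5D (right), coloured by role, with filled points for an adjusted p below 0.05. In GN5 39 of 41 points and in H5D 36 of 40 lie left of 0, and 4 points are filled, all in GN5.

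In H5D 0 of 40 probes were called, where 0.722% of all 7895 probes were. The log2 fold changes were below 0 for 36 of 40, with a median of -0.14 against -0.01 over all probes. An unadjusted p of 0.05 was passed by 5 of the 40, all lower (Psmd9, Psmd5, Psmb8, Psmb2 and Psmb7). Over the array 1317 of 7895 probes passed it, 623 of them lower. Counted in both directions, 5 of 40 was not above the share over the array. For 13 of the 40 all treated arrays lay below all vehicle arrays, against 12.3% of all probes, and for 0 above. Scaling to a common median turned the sign. It moved the median of all probes to 0.17 and that of the proteasome probes to 0.04, with 17 of 40 below 0, so that they stayed 0.14 under the rest and 0 were called. By role the lowest median was that of the assembly chaperones (-0.28), followed by the constitutive beta subunits (-0.21).

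The cap chaperones Psmd5 and Psmd9 had the lowest values in H5D. Psmd5 (S5b) read 9.16, 9.16 and 8.98 under vehicle and 8.66, 8.59 and 8.68 under rapamycin in H5D. In GN5 it read 9.06, 9.08 and 9.24 under vehicle and 8.86, 8.74 and 8.85 under rapamycin. In both lines the treated arrays lay below all vehicle arrays. Its log2 fold change was -0.46 ± 0.10 in H5D and -0.31 ± 0.10 in GN5, both short of the threshold (adjusted p = 0.0821 and 0.0822 in limma). Psmd9 (p27) read 9.56, 9.82 and 9.50 under vehicle and 9.004, 9.20 and 9.16 under rapamycin in H5D, without overlap (-0.51 ± 0.12, adjusted p = 0.0854). In GN5 it read 9.25, 9.35 and 9.57 under vehicle and 9.28, 9.16 and 9.23 under rapamycin, with overlap (-0.17 ± 0.11, adjusted p = 0.372). With all 12 arrays in the fit, both were called in H5D, the only 2 of the 40, and the same 2 passed the methods' t-test with its 1.2-fold limit before adjustment and 0 after. In these settings 3.67% and 6.09% of all probes were called, so that 2 of 40 was near the share over the array.

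**Figure D3:**
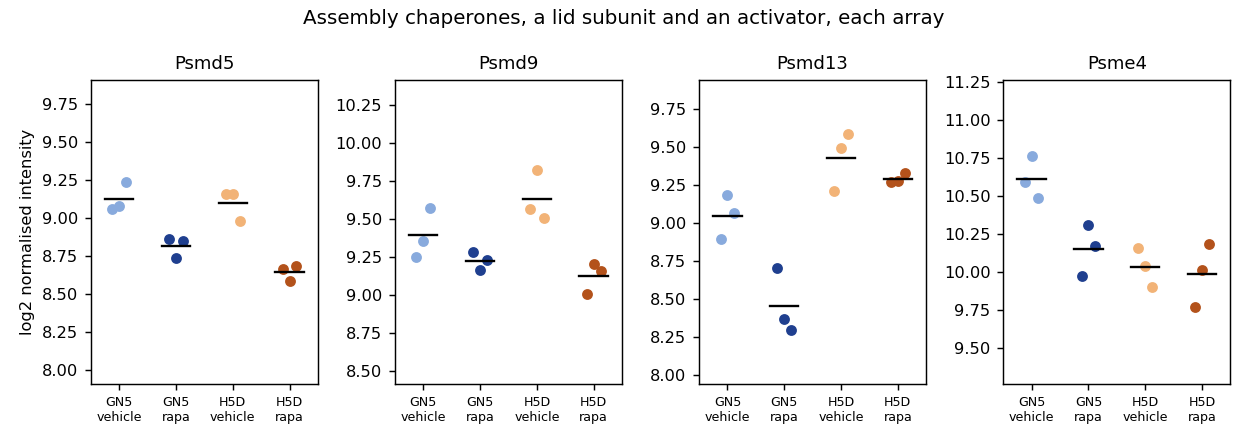
The log2 normalised intensity of the cap chaperones Psmd5 and Psmd9, the lid subunit Psmd13 and the activator Psme4 is plotted for each array by line and treatment, with 3 points per group and a bar at the mean, over the same range of log2 units in each panel. For Psmd5 the rapamycin arrays lie below the vehicle arrays in both lines, for Psmd9 in H5D, and for Psmd13 and Psme4 in GN5, while the groups overlap in the other line.

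Averaged over the lines, in a fit of all 12 arrays that shares its arrays with both comparisons above, 7 of 41 probes were called, all lower, where 9.11% of the 8539 probes tested were called and 4.36% were called lower. Psmd5 fell by 1.302-fold (-0.38 ± 0.07, adjusted p = 0.00319 in limma), Psmd13 by 1.29-fold (-0.37 ± 0.09, adjusted p = 0.0211) and Psmd9 by 1.26-fold (-0.34 ± 0.08, adjusted p = 0.0164). The others were the immune subunits Psmb8 (-0.30 ± 0.07, adjusted p = 0.0168 in limma) and Psmb10 (-0.26 ± 0.06 and -0.25 ± 0.08 with its 2 probes, adjusted p = 0.0225 and 0.0496) and the trypsin-like subunit Psmb7 (-0.23 ± 0.07, adjusted p = 0.0437). Of the 41 probes, 37 were below 0 with a median of -0.19, against 0.001 over all probes. An unadjusted p of 0.05 was passed by 21 of the 41, all lower, and over the array by 2113 of 8539, 1037 of them lower. Over 18 alternative settings the call of Psmd5 was kept in 17, of Psmd9 in 16, of Psmb8 in 15, of probe 1 of Psmb10 in 13, of Psmd13 in 11, of Psmb7 in 5 and of probe 2 of Psmb10 in 3. Without GN5 vehicle replicates 2 and 3 the count was 0, with Psmd5 at -0.35.

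**Figure D4:**
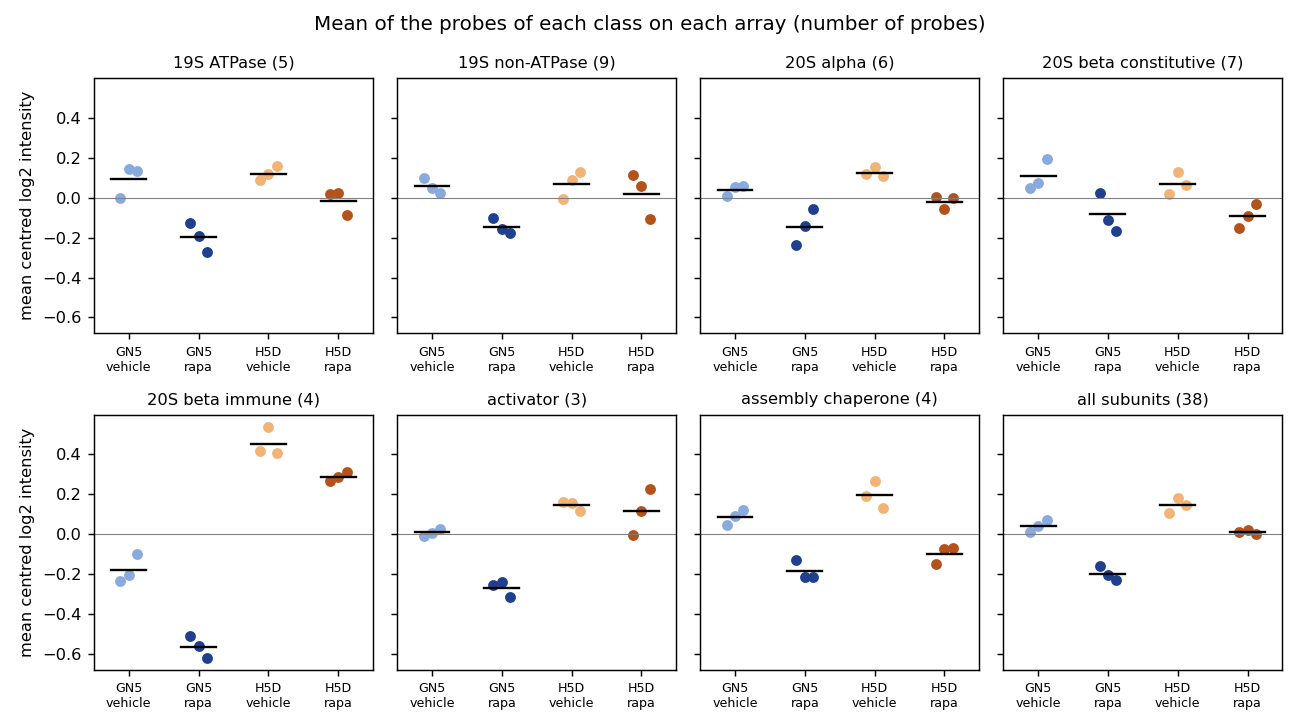
The mean centred log2 intensity of the probes of each role (number of probes detected on all 12 arrays in brackets) is plotted for each array by line and treatment, with 3 points per group and a bar at the mean. Over all 38 subunit and chaperone probes the GN5 arrays stood at 0.01 to 0.07 under vehicle and -0.23 to -0.16 under rapamycin, and the H5D arrays at 0.11 to 0.18 and 0 to 0.02.

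The rapamycin response of the proteasome genes was not shown to differ between the lines. In the test of the difference, GN5 response minus H5D response, 0 of 41 probes were called, where 1.41% of 8539 probes were. An unadjusted p of 0.05 was passed by 6 of the 41, near the share over the array (1235 of 8539). The median was -0.10. Of these 6, 5 had a negative difference, and Psmd9 a positive one, at 0.34 ± 0.16. For the called GN5 genes the difference was -0.46 ± 0.18 for Psmd13 (adjusted p = 0.254 in limma), -0.42 ± 0.18 for Psme4 (adjusted p = 0.298), -0.31 ± 0.23 for Psmb9 (adjusted p = 0.585) and -0.29 ± 0.13 for probe 1 of Psmb10 (adjusted p = 0.311). Scaling to a common median, which moved the median of all probes to -0.29, gave 2 calls, Psmd13 and Psme2, both lower.

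Between the lines under vehicle, 22 of 41 probes were called, 8 higher and 14 lower in GN5, where 63.3% of all 8279 probes were called, 32.3% higher and 31.0% lower. Under rapamycin 26 of 41 were called, 8 higher and 18 lower, where 72.2% of 8288 were called, 38.1% higher and 34.1% lower. With scaling to a common median the splits were 12 higher and 8 lower under vehicle, and 2 higher and 22 lower under rapamycin. That scaling ended the vehicle calls of Psma5, Psmb3, Psmd3, Psmd12, Psmd13 and Psme2 and the rapamycin calls of Psma4, Psma7, Psmb5, Psmc1, Psmd1 and Psmd2. Without GN5 vehicle replicates 2 and 3, 13 probes were called under vehicle, 4 higher and 9 lower, and those of Psma4, Psma5, Psmb2, Psmc1, Psmd3, Psmd12, Psmd13, Psme2 and Psmg1 were no longer called. The calls of Psmb8, Psmb10, Psma2, Psme1 and Psmg2 were kept under both treatments in each alternative run.

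Within the alpha ring Psma2 and Psma3 stood at opposite ends. Psma2 read 11.27, 11.02 and 11.22 in GN5 vehicle, 10.94, 11.05 and 11.15 in GN5 rapamycin, 12.24, 11.96 and 12.30 in H5D vehicle and 12.25, 11.90 and 11.97 in H5D rapamycin. It was 1.998-fold lower in GN5 under vehicle (-0.999 ± 0.13, adjusted p = 4.41e-05 in limma) and 1.99-fold lower under rapamycin, with no overlap. Psma3, whose probe was dim, read 6.23, 6.38 and 6.27 in GN5 vehicle, 6.21, 6.27 and 6.45 in GN5 rapamycin, 5.28, 5.48 and 5.24 in H5D vehicle and 5.46, 5.31 and 5.796 in H5D rapamycin. It was 1.95-fold higher in GN5 under vehicle (adjusted p = 2.31e-05) and 1.73-fold higher under rapamycin (adjusted p = 0.000133 in limma), though only 3 of the 6 H5D arrays detected it. On H5D vehicle replicates 1 and 3 it lay below the lowest detected values there (5.293 and 5.291). Psma3 was tested through GN5, where it was higher, so its fold is limited by the detection floor. Psma7, also an alpha subunit, read 12.69, 12.56 and 12.64 in GN5 vehicle, 12.34, 12.68 and 12.29 in GN5 rapamycin, 12.07, 12.28 and 11.98 in H5D vehicle and 12.03, 12.20 and 12.01 in H5D rapamycin, higher in GN5 without overlap (0.52 under vehicle and 0.36 under rapamycin, adjusted p = 0.00245 and 0.0155).

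Among the other alpha subunits Psma4 was higher in GN5 (0.34 ± 0.11 under vehicle and 0.30 ± 0.10 under rapamycin), Psma5 lower under vehicle (-0.31 ± 0.10) and Psma1 lower under rapamycin (-0.33 ± 0.12), and Psma6 was not called.

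In the beta ring the noncatalytic subunit Psmb2 was higher in GN5. It read 12.36, 12.35 and 12.56 in GN5 vehicle, 12.44, 12.36 and 12.32 in GN5 rapamycin, 11.92, 11.99 and 11.93 in H5D vehicle and 11.71, 11.62 and 11.77 in H5D rapamycin. The difference was 0.48 ± 0.11 under vehicle and 0.68 ± 0.09 under rapamycin (adjusted p = 0.00258 and 3.28e-05 in limma). Every GN5 array lay above every H5D array. Psmb3, also noncatalytic, was lower in GN5, at -0.45 ± 0.11 and -0.70 ± 0.10 (adjusted p = 0.00461 and 4.16e-05). Psmb1 and Psmb4, the remaining noncatalytic beta subunits, were called in neither comparison.

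The ATPase ring of the cap held members of either direction. Psmc1 (Rpt2) read 12.22, 12.36 and 12.32 in GN5 vehicle, 12.05, 12.09 and 11.99 in GN5 rapamycin, 11.81, 11.89 and 11.87 in H5D vehicle and 11.68, 11.81 and 11.63 in H5D rapamycin. Psmc2 (Rpt1) read 10.73, 10.71 and 10.87 in GN5 vehicle, 10.69, 10.65 and 10.72 in GN5 rapamycin, 11.39, 11.31 and 11.41 in H5D vehicle and 11.29, 11.05 and 11.16 in H5D rapamycin. All GN5 arrays were above the H5D arrays for Psmc1 (0.44 ± 0.10 under vehicle, adjusted p = 0.00328 in limma) and below them for Psmc2 (-0.60 ± 0.11, adjusted p = 0.000487). Under rapamycin Psmc3 and Psmc6 were lower as well (-0.62 ± 0.18 and -0.41 ± 0.14), while Psmc4 and Psmc5 were called under neither treatment. The probe of Psmc6 was dim and was detected on 1 of 3 GN5 rapamycin arrays. It entered this comparison through H5D, where it was higher.

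Of the large scaffold subunits of the base, Psmd1 read 9.59, 9.61 and 9.81 in GN5 vehicle, 9.57, 9.56 and 9.49 in GN5 rapamycin, 9.31, 9.43 and 9.47 in H5D vehicle and 9.21, 9.21 and 9.14 in H5D rapamycin. Psmd2 read 10.06, 10.30 and 10.12 in GN5 vehicle, 9.93, 10.22 and 10.18 in GN5 rapamycin, 9.70, 10.10 and 9.95 in H5D vehicle and 9.53, 9.70 and 9.81 in H5D rapamycin. Both were called higher in GN5 under rapamycin (0.35 ± 0.09 and 0.43 ± 0.11, adjusted p = 0.0036 and 0.00459 in limma) and not under vehicle (0.26 and 0.25, adjusted p = 0.0583 and 0.122). The lid subunit Psmd13, at 9.21, 9.49 and 9.59 in H5D vehicle and 9.27, 9.28 and 9.33 in H5D rapamycin, was lower in GN5 under both treatments (-0.38 ± 0.13 and -0.84 ± 0.11, adjusted p = 0.0263 and 2.95e-05). Of the other cap subunits, Psmd3 and Psmd12 were lower in GN5 under both treatments (between -0.33 and -0.66), Psmd11 lower under rapamycin (-0.31 ± 0.10) and Psmd6 higher under vehicle (0.35 ± 0.14). The ubiquitin receptor Psmd4 and the lid subunit Psmd7 were called in neither comparison.

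Both PA28 subunits were lower in GN5, and PA200 was higher under vehicle. Psme1 read 12.53, 12.39 and 12.37 in H5D vehicle and 12.34, 12.50 and 12.48 in H5D rapamycin, above all GN5 arrays (-0.63 ± 0.11 under vehicle and -0.63 ± 0.09 under rapamycin, adjusted p = 0.000366 and 6.74e-05 in limma). Psme2 read 9.66, 9.90 and 9.92 in H5D vehicle and 9.73, 9.70 and 9.87 in H5D rapamycin (-0.37 ± 0.12 and -0.70 ± 0.10, adjusted p = 0.0185 and 6.27e-05), also above all GN5 arrays. The GN5 values of all these activators are given above. Psme4 read 10.16, 10.04 and 9.90 in H5D vehicle and 9.77, 10.01 and 10.19 in H5D rapamycin. GN5 was higher under vehicle (0.58 ± 0.12, adjusted p = 0.00138) and overlapped with H5D under rapamycin, where the sign turned with scaling to a common median (0.17 ± 0.13, adjusted p = 0.251). In the GRCr8 gene table Psme1 and Psme2 lie on chromosome 15 with 1 gene between them.

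Psmg1 and Psmg2 form a chaperone dimer. Psmg1 read 10.70, 10.88 and 10.83 in GN5 vehicle, 10.70, 10.45 and 10.43 in GN5 rapamycin, 10.46, 10.44 and 10.40 in H5D vehicle and 10.18, 10.43 and 10.38 in H5D rapamycin. It was called higher in GN5 under vehicle (0.37 ± 0.10, adjusted p = 0.00957 in limma) and not under rapamycin (0.19 ± 0.11, adjusted p = 0.129). Psmg2 read 7.71, 7.59 and 7.40 in GN5 vehicle, 7.19, 7.33 and 7.19 in GN5 rapamycin, 8.12, 8.19 and 8.19 in H5D vehicle and 8.10, 8.03 and 8.05 in H5D rapamycin. All its GN5 arrays lay below all H5D arrays (-0.60 ± 0.11 and -0.82 ± 0.09, adjusted p = 0.000892 and 5.33e-06 in limma). For Psmg1 the GN5 vehicle arrays stood above the rest, and for Psmg2 the lines were apart. Psmc3ip, which is no subunit, read 6.96, 7.01 and 7.57 in GN5 vehicle, 6.98, 7.14 and 7.25 in GN5 rapamycin, 7.98, 7.89 and 7.74 in H5D vehicle and 7.67, 7.67 and 7.99 in H5D rapamycin, and was lower in GN5 (-0.69 ± 0.16 under vehicle, adjusted p = 0.00346).

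**Figure D5:**
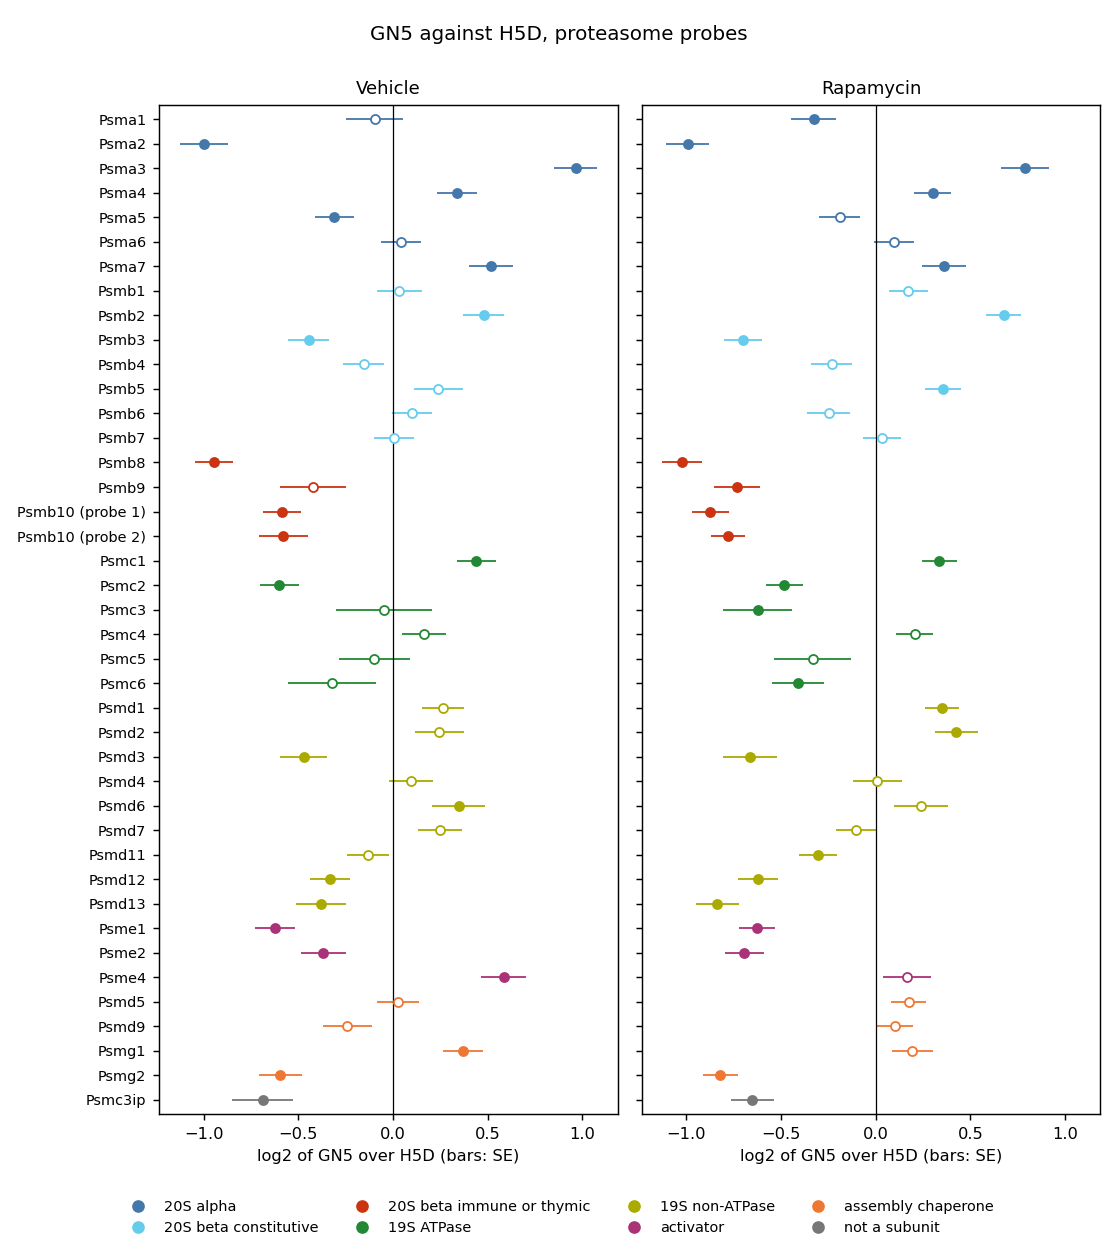
The log2 ratio of GN5 over H5D, with its SE as a horizontal bar, is plotted for each tested proteasome probe under vehicle (left) and rapamycin (right), coloured by role, with filled points for an adjusted p below 0.05. All 4 immune probes lie left of 0 in both panels, with Psmb8 at -0.95 and -1.02, while the other roles lie on both sides.

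Genes that work with the proteasome but carry other names were read from 4 lists. In GN5, of 18 tested genes of the associated list 0 rose and 2 fell, where 3.46% of all probes were called lower. Pomp, the maturation factor of the core, fell 1.53-fold (-0.61 ± 0.10, adjusted p = 0.00411 in limma), from 8.76, 8.95 and 8.98 under vehicle to 8.27, 8.35 and 8.24 under rapamycin. In H5D its arrays read 9.31, 9.92 and 9.26 under vehicle and 9.47, 9.70 and 9.71 under rapamycin, with overlap. Adrm1 (Rpn13), a ubiquitin receptor of the cap, fell 1.51-fold (-0.59 ± 0.12, adjusted p = 0.0152). In H5D 1 of 18 fell, Zfand2a (AIRAP), an arsenite-inducible protein that binds the cap (-0.59 ± 0.11, adjusted p = 0.0442 in limma). Over the array 0.722% of probes were called in H5D, in either direction. Averaged over the lines Zfand2a fell (-0.45 ± 0.07) and the shuttle factor Ubqln4 rose (0.27 ± 0.08, just inside the threshold). This call of Ubqln4 was kept in 2 of 17 alternative settings and that of Zfand2a in 17 of 18. The probe of Ubqln4 was dim, and on H5D vehicle replicate 2 it read 5.24, below the lowest detected value there (5.448). Without GN5 vehicle replicates 2 and 3 the averages were 0.19 for Ubqln4 and -0.48 for Zfand2a. Of the ubiquitin genes and conjugating enzymes 0 of 12 were called in GN5 and 0 of 13 in H5D. When GN5 vehicle replicates 2 and 3 were left out, 0 genes of both lists were called in GN5, with Pomp at -0.48 and Adrm1 at -0.60. The median over the associated list was -0.02 in GN5 and 0.04 in H5D, and that over the ubiquitin list -0.06 and -0.05.

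Of the genes of MHC class I antigen presentation, which takes up the peptides that the immune subunits favour, several differed between the lines, in both directions. Of 13 tested, 4 were higher and 8 lower in GN5 under vehicle, and 5 higher and 8 lower under rapamycin, where most probes of the array differed as well (63.3% and 72.2%). With GN5 vehicle replicates 2 and 3 left out, the vehicle count was 2 higher and 6 lower. In the GRCr8 gene table Tap2, Psmb8, Tap1 and Psmb9 follow each other on chromosome 20, within the MHC. The peptide transporter subunits Tap1 and Tap2 were 1.60-fold and 3.25-fold lower in GN5 under vehicle (adjusted p = 0.0023 and 1.01e-06 in limma), and the light chain B2m was 1.58-fold lower (adjusted p = 0.00131, lost without those arrays). Tap1 read 5.27 and 5.50 on GN5 vehicle replicates 1 and 2, below the lowest detected values there (5.42 and 5.65). It was tested through H5D, where it was higher, so its fold is limited by the detection floor. The class I heavy chains RT1-A1 and RT1-T24-4 were lower as well (-1.05 and -1.21), and so was Tapbpl (-1.50). RT1-N3, the chaperone Calr and Pdia3 were higher (0.95, 0.83 and 0.83). With rapamycin 1 of 12 fell in GN5, where 3.46% of all probes were called lower, and 0 of 13 were called in H5D. The gene was Calr (-0.43 ± 0.10, adjusted p = 0.0274 in limma), a call lost without GN5 vehicle replicates 2 and 3.

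Of the interferon response genes 16 were tested in GN5, where 0 rose and 4 fell with rapamycin, while 3.46% of all probes were called lower. Irf1, a transcription factor that in mouse and human cells drives Psmb8 and Psmb9, read 9.11, 9.29 and 9.40 under vehicle and 8.86, 8.85 and 8.76 under rapamycin in GN5 (-0.44 ± 0.10, adjusted p = 0.0284 in limma). In H5D it read 9.64, 9.56 and 9.59 under vehicle and 9.79, 9.97 and 9.92 under rapamycin, higher on all 3 treated arrays, and was not called (0.30 ± 0.10, adjusted p = 0.178). In the test of the difference, Irf1 was called (-0.74 ± 0.14, adjusted p = 0.0142), and so was Ifi27l2b (-0.76 ± 0.13, adjusted p = 0.00958), whose fall was 2.44-fold in GN5 and 1.44-fold in H5D. Also lower in GN5 were Ube2l6, the conjugating enzyme of ISG15 (-0.49 ± 0.10), and Ifi35 (-0.39 ± 0.10). The part of these genes in the values of the immune subunits was not tested. Over the list the median was -0.01 in GN5 and 0.10 in H5D. Averaged over the lines, 2 of 18 genes rose and 2 fell, where 9.11% of all probes were called. Ifi27 (0.425) and Jak1 (0.38) rose, and Ifi27l2b (-0.91) and Ube2l6 (-0.25) fell. These calls were kept in 17, 7, 18 and 4 of 18 alternative settings, in that order. The averages without GN5 vehicle replicates 2 and 3 were 0.31, 0.26, -0.855 and -0.29 in the same order. Without GN5 vehicle replicates 2 and 3 only Ifi27l2b was still called in GN5 (-1.19), and the differences between the lines were -0.58 for Irf1 and -0.66 for Ifi27l2b, neither called. Between the lines the list went both ways. Of 17 genes 6 were higher and 5 lower in GN5 under vehicle, and of 18 under rapamycin 6 higher and 9 lower. Over the array 63.3% and 72.2% of probes were called. The guanylate-binding protein Gbp2, Ifi44 and the ISGF3 subunit Irf9 were higher in GN5 under vehicle (1.52, 0.90 and 0.49), and Ube2l6 and Ifi27l2b lower (-2.11 and -1.83). Without those arrays 3 were higher and 6 lower.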

How the data were processed

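Total RNA from triplicate plates of each line and treatment was hybridised to a rat bead array with 22523 probes. The authors deposited a table of bead summary intensity per probe and array, before normalization, with a detection p-value for each, which were used here. They also deposited a table of intensity after quantile normalization, used as an alternative, and their methods name BeadStudio and Partek 6.3. Probe symbols came from the platform annotation and were updated by Entrez identifier for 13752 of 13793 probes with a symbol, while 8730 had none.

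Intensities were background corrected with neqc of limma 3.58.1 in R 4.3.3 (normexp from the detection p-values, offset 16), quantile normalized and taken as log2. A probe was tested if its detection p was at most 0.01 on all 3 arrays of at least 1 group compared. The 6 comparisons were fitted with lmFit and eBayes (two-sided), on the 6 arrays compared or, for the average and the difference, on all 12, with Benjamini-Hochberg adjustment over all probes tested. Calls were made below an adjusted p of 0.05. Single ratios were tested by an exact permutation test. The number of arrays limits the precision.

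The members and gene lists were chosen with earlier results of these data known. Per-array values are given for the catalytic subunits and their immune counterparts, for the activators, for members called with rapamycin within a line, and, for the average and each comparison of lines, for the 6 called members with the largest log2 fold change in each direction, with Psmc3 added after its values were seen. In lists the brightest probe stood for a gene. Alternatives were no or a stricter detection filter, the deposited normalization, scaling to a common median, all 12 arrays in the fit, the replicate number as a block, the methods' t-test with a 1.2-fold limit, and leaving out arrays. Running them on the list genes, and the ratios without the brighter arrays, was chosen after seeing the data. The labels do not say whether equal replicate numbers pair plates across groups. Deviations of same-numbered arrays correlated with r between -0.36 and 0.30, and so few arrays cannot decide it.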

Additional observations from a re-analysis of the deposited data

Results flagged for a closer look

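The rapamycin response of 2 interferon genes differed between the lines by the test of the difference, GN5 minus H5D. For Irf1 the difference was -0.74 on the log2 scale (adjusted p = 0.0142 in limma), with all 3 treated arrays below all vehicle arrays in GN5 and all 3 above in H5D. For Ifi27l2b it was -0.76 (adjusted p = 0.00958), with a fall called in both lines. Its H5D call (-0.525, adjusted p = 0.0473 in limma) was kept in 5 of 14 alternative settings. Without GN5 vehicle replicates 2 and 3 the differences were -0.58 and -0.66 and neither was called (adjusted p = 0.208 and 0.123). Over 18 alternative settings each was kept in 15. The call of Irf1 was also lost without H5D rapamycin replicate 2 (-0.70, adjusted p = 0.054), that of Ifi27l2b with the deposited normalization, and both with the replicate number as a block. Over the settings the difference ran from -1.125 to -0.58 for Irf1 and from -1.03 to -0.37 for Ifi27l2b. No proteasome gene differed in this way, with 0 of 41 probes called and 6 at an unadjusted p under 0.05, against 1235 of all 8539 probes.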

How the results depend on the processing

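The number of proteasome probes called with rapamycin in GN5, 4 as reported, was 1 without a detection filter, 6 with the stricter filter, 13 with the deposited normalization, 20 with scaling to a common median and 11 by the methods' t-test (1 after Benjamini-Hochberg adjustment). Leaving out 1 array gave 0 to 9. In H5D the count of 0 became 1 with the deposited normalization and 2 with all 12 arrays or by the methods' t-test before adjustment (0 after), and leaving out 1 array gave 0 to 0. The average count of 7 was 11 with the deposited normalization, 1 with scaling to a common median (Psmd5) and 0 without GN5 vehicle replicates 2 and 3, which leaves 1 array assumed to vary like the others. Leaving out 1 array gave 3 (GN5 vehicle replicate 2 or GN5 rapamycin replicate 3) to 8, and 4 without GN5 rapamycin replicate 2 or H5D rapamycin replicate 2. The difference between lines went from 0 to 2 with scaling to a common median. In GN5 without the brighter vehicle arrays the count was 1, and between lines under vehicle it was 13 of 41 in place of 22. Between lines, leaving out 1 array gave 17 to 22 under vehicle and 22 to 27 under rapamycin. The causes were not tested.

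With the replicate block the counts were 2 in GN5 (Psmd13 and Psme4), 0 in H5D, 2 for the average (Psmd5 and Psmd9), 22 and 26 between lines and 0 for the difference. Whether equal replicate numbers pair plates is not stated. No call changed direction among the called members. Over all probes the GN5 count fell from 515 to 330 with the block, and with scaling to a common median it was 857. In H5D the 57 calls became 290 with all 12 arrays and 164 with that scaling. Of the list genes called in GN5, Ifi27l2b was kept in 15 of 15 alternative settings, Pomp in 13, Ube2l6 in 11, Adrm1 in 9, Calr and Irf1 in 6 each and Ifi35 in 5. In H5D Zfand2a and Ifi27l2b were each kept in 5 of 14.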

Other observations

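Of the genes that supply ubiquitin, 12 were tested between the lines under vehicle, of which 4 were higher and 2 lower in GN5, where 63.3% of all probes were called. Ube2c, the conjugating enzyme of the anaphase-promoting complex, was higher (log2 fold change 0.72 ± 0.12 SE, adjusted p = 0.000319 in limma), as were Ube2e3 (0.65 ± 0.13) and Ube2v2, a partner of Ube2n (0.41 ± 0.12). Ube2r2 was higher too (0.385). Ube2k, which extends ubiquitin chains, was lower (-0.32 ± 0.11), and Usp5 was lower by more (-0.85). The call of Usp5 was kept in 15 of 15 alternative settings and that of Ube2k in 7. Of the 18 associated genes tested, 6 were higher and 2 lower under vehicle, and 7 higher and 5 lower under rapamycin, at which 72.2% of all probes were called. Without GN5 vehicle replicates 2 and 3 the vehicle counts were 3 higher and 0 lower for the associated genes and 3 higher and 1 lower for the ubiquitin genes, and Ube2k, Ube2v2 and Pomp were no longer called. The core maturation factor Pomp was lower in GN5 under vehicle (-0.60 ± 0.17, adjusted p = 0.00986 in limma).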
